A study of Arabidopsis thaliana with 24 samples.

Results

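Salt-treated shoots of Arabidopsis were set against control shoots by the DMS reactivity of each transcript, for all 8956 loci of a table of 12978 transcripts. Every locus was represented by its lowest-numbered isoform, and all 8956 reached the required mean reactivity of 0.1 over both shoot conditions. The series asks, from its title, how salt changes RNA structure in shoots and in roots, and the shoot comparison gives the shoot side of that question. Both groups were wild-type Col-0 plants grown for 24 days in all, at first on agar plates and later in hydroponic solution. The salt-treated plants then had 100 mM NaCl in the solution for 48 h, while the control plants stayed in solution without added NaCl. About 40 pooled plants went into each library, and shoots were exposed to 0.75% dimethyl sulfate (DMS) for 5 min or to buffer alone. Shoots gave 12 of the 24 libraries of the series, 3 biological replicates with DMS and 3 without in each shoot condition. The deposited table holds 1 value per transcript and condition, with the replicates already combined. No spread between replicates could be computed, no difference below was tested, and the differences are described by their size.

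DMS methylates adenines and cytosines of RNA on the face that forms base pairs, so a base that is paired or covered reacts little and an open base reacts more. Structure-seq2 reads the methylated bases as stops of reverse transcription along each transcript. The table gives 4 measures of a transcript's profile: its mean reactivity, its highest single base, its standard deviation between bases, and its Gini index, which is low when all bases react alike and high when a few bases hold most of the reactivity. Salt withdraws water from plant tissue and raises abscisic acid. PYR/PYL receptors that bind this hormone inhibit PP2C phosphatases, which frees SnRK2 kinases to activate transcription factors, and these switch on genes for dehydrins, compatible solutes and detoxifying enzymes.

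Mean reactivity of most transcripts differed little between salt-treated and control shoots. The median was 0.266 in salt-treated shoots and 0.273 in control shoots. Log2 ratios of salt over control ran from -0.24 at percentile 5 to 0.16 at percentile 95, and 97.3% of loci lay within 0.32 of 0. Below 0 lay 5614 loci (62.7%) and above 0 lay 3342 loci (37.3%). The Gini index, a measure of unevenness, lay on 1 side more often than the mean. It was higher in salt-treated shoots at 6573 loci (73.4%) and lower at 2383 (26.6%), with medians of 0.690 in salt-treated shoots and 0.679 in control shoots. The commonest combination, at 3814 loci (42.6%), was a lower mean with a higher Gini index. Both measures were higher at 2759 loci (30.8%) and both lower at 1800 (20.1%), while a higher mean with a lower Gini index was found at 583 (6.51%). Lower means and higher Gini indices were each in the majority, and the log2 ratio rose with the Gini difference (Spearman correlation 0.303). By size, the Gini index was higher by at least 0.05 at 565 loci (6.31%) and lower by as much at 92 loci (1.03%).

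The 2 shoot conditions differed in how far transcripts differed from each other. The standard deviation between bases was nearly the same for all transcripts in control shoots and was not so in salt-treated shoots. Its 1st and 99th percentiles were 0.258 and 0.532 in salt-treated shoots, against 0.347 and 0.399 in control shoots, with medians of 0.371 with salt and 0.369 without. In roots the same percentiles were 0.139 and 0.792 with salt, and 0.128 and 0.801 without. Across the 8956 loci, which share libraries and scale, mean reactivity and Gini index had a Spearman correlation of -0.786 in salt-treated shoots and -0.993 in control shoots. The sources used here do not give how the reactivity scale was set, and read depth and transcript abundance were not analysed here, so their part in the differences below was not tested.

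**Figure D1:**
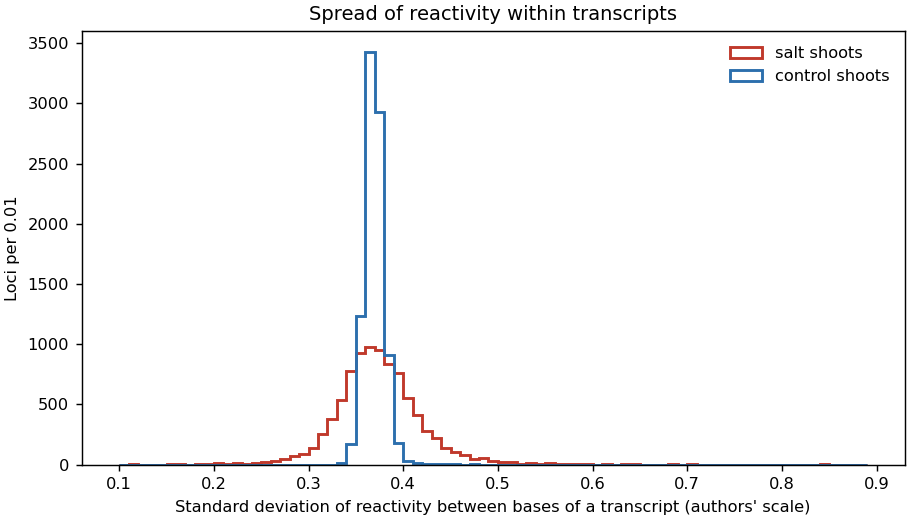
Number of loci (vertical axis, per 0.01) by the standard deviation of reactivity between the bases of a transcript (horizontal axis, authors' scale) in salt-treated shoots (red) and control shoots (blue), over 8956 loci. The control values form a narrow peak around their median of 0.369, and the salt values spread widely around a median of 0.371.

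At least 1.5-fold lower in salt-treated shoots were 39 loci (0.435% of all loci), and at least 1.5-fold higher were 8 (0.0893%). In 5 of the 39 lower loci and 2 of the 8 higher ones the Gini index exceeded 0.9, so the mean rests on few bases, and these loci are given first. AT3G52700 had 0.0390 in salt-treated shoots and 0.197 in control shoots, and the SADHU2-1 retrotransposon transcript had 0.0453 with salt and 0.218 without. The other lower loci of this kind were AT1G28620 (log2 ratio -0.80), AT1G55710 (-0.74) and SIP1;2 (-0.65), an aquaporin gene. The higher ones, AT5G10660 (0.71) and AT2G41231 (0.59), had a single-base maximum of exactly 7 in both conditions, the highest shoot value among the loci compared. Of the lower ones, AT3G52700 also had 7 in both conditions, and SADHU2-1 had 7 with salt and 6.75 without. Just outside the limit lay AT3G12955, whose Gini index also exceeded 0.9, at 0.584, AT2G20670 at 0.584, PP2CA at -0.58 and AT2G38250 at -0.56.

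The remaining 34 lower loci also had a lower highest base and a lower standard deviation in salt-treated shoots. Their highest base lay between 0.510 and 1.28 in salt-treated shoots (median 0.855), against 1.33 and 2.71 in control shoots (median 1.82). Over all loci its 1st and 99th percentiles were 1.16 and 2.91 with salt, and 1.35 and 2.64 without. In the 34 loci the standard deviation was 0.113 to 0.266 in salt-treated shoots and 0.353 to 0.425 in control shoots. Over all loci its 1st and 99th percentiles were 0.258 and 0.532 with salt, and only 0.347 and 0.399 without. The part of the reactivity scale of control shoots in these differences was not tested. The 34 loci were picked by their mean, which is not independent of either measure. Across all loci the log2 ratio had a Spearman correlation of 0.857 with the standard deviation difference and 0.521 with the maximum difference. The Gini index was lower in 31 of the 34, where 26.6% of all loci had a lower one, and these measures come from the same bases as the mean. Standard deviations lower by at least 0.1 were found at 146 of all loci (1.63%) and higher by as much at 276 (3.08%). A maximum lower by at least 1 was found at 33 loci (0.368%) and higher by as much at 76 (0.849%). The 6 higher loci with a Gini index of at most 0.9 went the other way in all measures. Their highest base lay between 2.84 and 4.21 in salt-treated shoots and between 1.54 and 1.93 in control shoots, and the Gini index was higher in all 6.

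**Figure D2:**
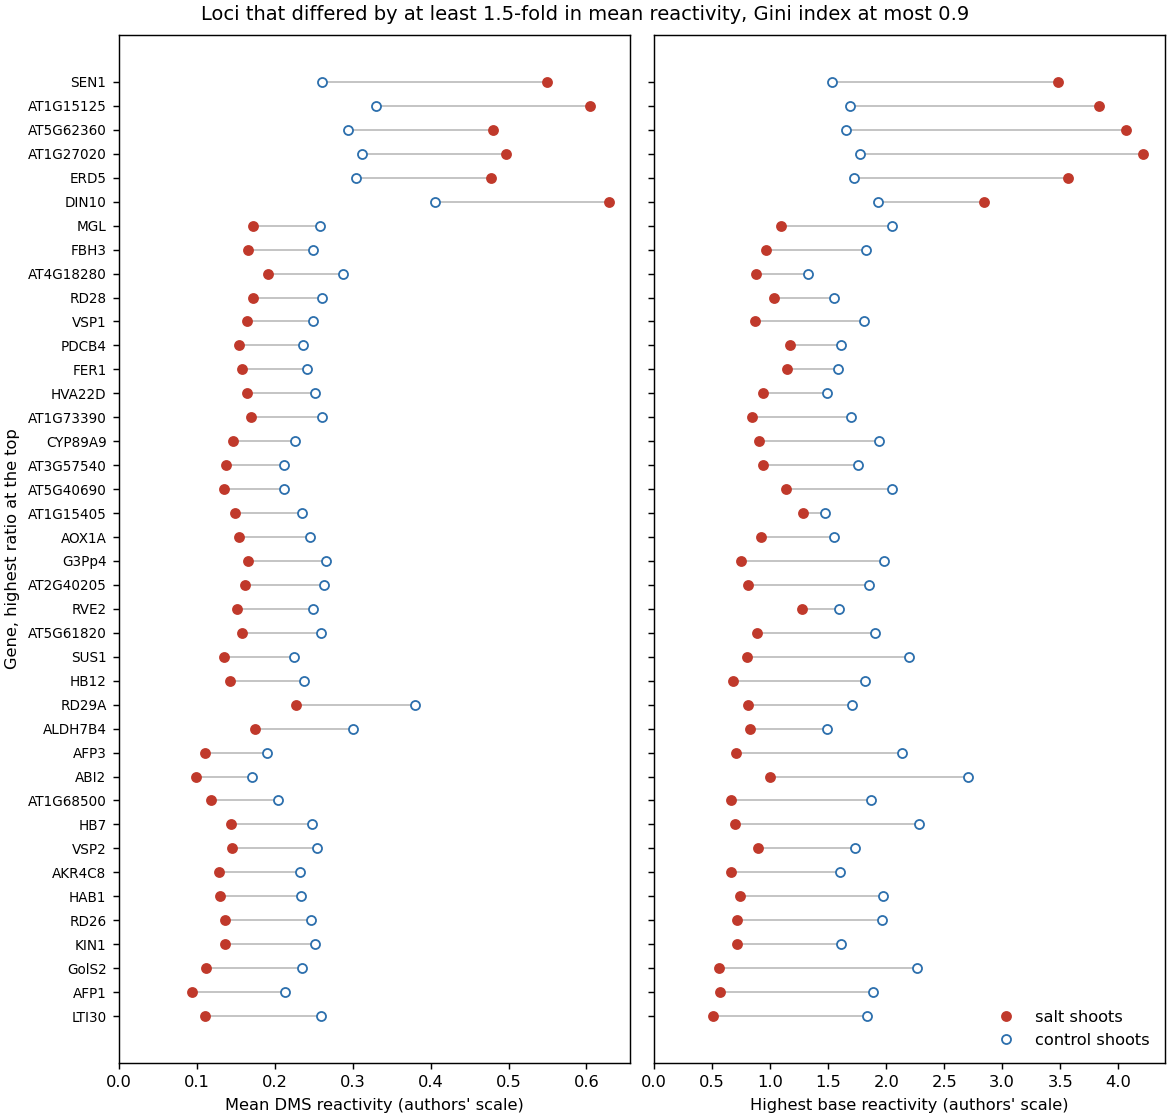
Mean DMS reactivity (left panel) and highest base reactivity (right panel), both on the authors' scale, for the 6 higher and 34 lower loci past 1.5-fold whose Gini index was at most 0.9, in salt-treated shoots (filled red) and control shoots (open blue), with a line joining the 2 values of each gene. The 6 genes at the top are higher with salt in both panels, and the 34 below are lower in both.

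Genes of dehydration and abscisic acid were among the lowest ratios. In all, 4 lists of such genes (LEA proteins and dehydrins, signalling, transcription factors and their partners, hormone metabolism) held 49 measured members, and 10 of these 49 were lower by at least 1.5-fold, where 0.435% of all loci were. The lists were chosen with earlier results of these data known, so this count is no independent evidence of enrichment. Of the signalling components, the PP2C phosphatases, which hold the pathway off, were lower. All 5 measured of 8 listed were below 0, as were 62.7% of all loci. All 5 had a lower Gini index, against 26.6% of all loci. The phosphatases were picked from the signalling list after their values were seen. HAB1 had a mean of 0.129 in salt-treated shoots and 0.234 in control shoots (log2 ratio -0.86), and its highest base was 0.740 with salt and 1.97 without. ABI2 had 0.0991 in salt-treated shoots and 0.171 in control shoots (-0.79). Its highest base was 0.995 with salt and 2.71 without, the most negative difference of the highest base among all loci. PP2CA stood at -0.58, ABI1 at -0.44 and HAB2 at -0.18.

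The receptors and kinases on either side of the phosphatases had members above and below 0. Of 5 PYR/PYL receptors measured, of 9 listed, 3 were above 0 and 2 below, where 37.3% of all loci were above 0. PYL4 had 0.369 in salt-treated shoots and 0.307 in control shoots (0.26), PYR1 stood at 0.16, PYL8 at 0.10, PYL1 at -0.05 and PYL9 at -0.39. The 5 SnRK2 kinases measured, of 9 listed, lay between -0.03 for SNRK2.2 and 0.15 for SNRK2.1. All 5 receptors and all 5 kinases had a higher Gini index in salt-treated shoots, as had 73.4% of all loci. Their median differences were 0.00689 for the receptors and 0.0311 for the kinases, against 0.0130 over all loci. The signalling list as a whole, 15 of 26 loci, had a median log2 ratio of -0.03, close to that of all loci (-0.035), with members from -0.86 to 0.26.

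The transcription factors of the pathway and the proteins that bind them had a median of -0.19 over 18 of 28 listed loci. Of the 18, 16 lay below 0, against 62.7% of all loci. The AFP proteins bind the factor ABI5 and dampen the hormone response. AFP1 had 0.0935 in salt-treated shoots and 0.213 in control shoots (-1.19), and AFP3 had 0.110 with salt and 0.190 without (-0.78). AFP3 also had the most negative Gini difference of all loci, with an index of 0.657 in salt-treated shoots and 0.815 in control shoots. AFP2 stood at -0.31 and AFP4 above 0 at 0.13. The homeodomain-leucine zipper factors HB7 and HB12, both induced by drought, had 0.143 and 0.142 in salt-treated shoots, against 0.248 and 0.237 in control shoots. Their relatives HB6 (-0.13) and HB5 (-0.05) differed less. The NAC factor RD26 had 0.135 in salt-treated shoots and 0.246 in control shoots, and DREB2A, a dehydration-responsive factor that does not need the hormone, had 0.210 with salt and 0.299 without (-0.51). Of the ABF factors, which bind abscisic acid response elements, ABF2 stood at -0.31, ABF4 at -0.03 and ABF1 at 0.07. The 8 most negative Gini differences belonged to AFP3, AFP1, LTI30, RD26, HB7, HB12, GolS2 and HAB1, and all of these but GolS2 are on the dehydration and abscisic acid lists.

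LEA proteins and dehydrins, which protect membranes and proteins in drying cells, had a median of -0.30 over 12 of 20 listed loci. Of the 12, 11 were below 0, against 62.7% of all loci. LTI30, a dehydrin, had 0.110 in salt-treated shoots and 0.259 in control shoots (-1.23), the lowest ratio of any locus with a Gini index of at most 0.9. Its highest base was 0.510 with salt and 1.84 without. KIN1, induced by cold and the hormone, had 0.136 in salt-treated shoots and 0.252 in control shoots (-0.89). RD29A, induced by desiccation, had 0.227 with salt and 0.380 without (-0.74). KIN2, a close copy of KIN1 that may share reads with it, stood at -0.17. LEA14 was at -0.48, DI21 at -0.39 and ERD10 at -0.30, and HIRD11 was highest at 0.05. The Gini index in this list was higher in 6 loci and lower in 6, where 26.6% of all loci had a lower one. Its median difference was 0.0003, against 0.0130 over all loci. LTI30 was the 1 member lower by at least 0.05. Enzymes that make and break down abscisic acid had 4 measured members of 11 listed, from ABA2 at -0.20 to CYP707A3 at 0.06. CYP707A2, an enzyme of breakdown at -0.05, had a Gini index above 0.9.

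**Figure D3:**
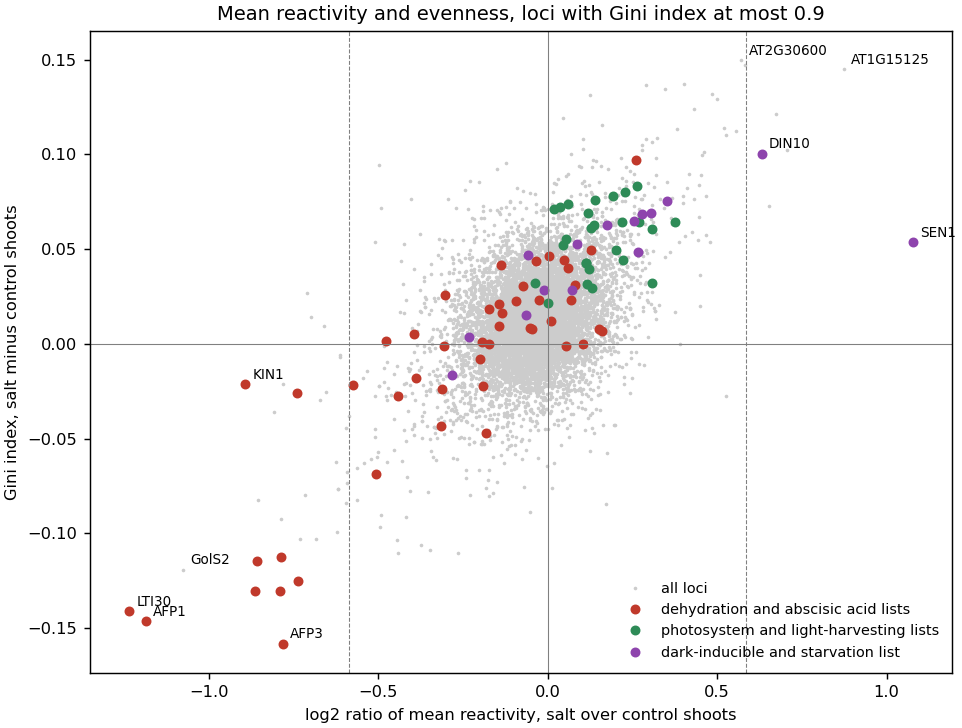
Difference of the Gini index, salt minus control shoots (vertical axis), against the log2 ratio of mean reactivity, salt over control shoots (horizontal axis), for loci with a Gini index of at most 0.9. Dashed lines mark 1.5-fold. Dehydration and abscisic acid genes (red) reach the lower left corner at LTI30, AFP1 and AFP3, and photosystem and light-harvesting genes (green) and dark-inducible and starvation genes (purple) lie mostly to the upper right. All points share the same libraries and scale.

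Other lower loci past the limit included genes of the sugar and jasmonate lists. GolS2 makes galactinol for raffinose synthesis and had 0.111 in salt-treated shoots and 0.235 in control shoots (-1.08), with a highest base of 0.557 with salt and 2.27 without. SUS1, a sucrose synthase, stood at -0.73, while DIN10, a raffinose synthase family gene on the same list, was higher. The list of raffinose, trehalose and sucrose metabolism had a median of -0.06 over 12 loci, 9 of them below 0. Both were near the values of all loci, a median of -0.035 and 62.7% below 0. VSP2 and VSP1, neighbouring jasmonate-induced genes for storage proteins that are near copies and may share reads, had 0.145 and 0.165 in salt-treated shoots, against 0.254 and 0.249 in control shoots. Jasmonate synthesis and signalling as a list had 15 of 16 measured members below 0, against 62.7% of all loci, and a median of -0.11. Below the median of all loci (-0.035) were 10 of the 16. It held 6 JAZ repressors between -0.18 for JAZ2 and 0.01 for JAZ3, and 5 of these had a lower Gini index. The jasmonate list was lower in the Gini index at 11 of 16 loci, against 26.6% of all loci.

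Among single genes, AKR4C8, an aldo-keto reductase, stood at -0.85, ALDH7B4, an aldehyde dehydrogenase of the stress response, at -0.78, and AOX1A, the alternative oxidase of mitochondria, at -0.67. FER1, which encodes an iron-storing ferritin, had 0.157 in salt-treated shoots and 0.241 in control shoots (-0.61), and its relative FER3 stood at -0.05. HVA22D, a gene induced by abscisic acid, was at -0.62. G3Pp4, a glycerol-3-phosphate permease gene, was at -0.69 and MGL, which encodes methionine gamma-lyase, at -0.59. The Myb-like factor RVE2 stood at -0.71 and the basic helix-loop-helix factor FBH3 at -0.59. CYP89A9, an enzyme of chlorophyll breakdown, was at -0.62 and PDCB4, for a callose-binding protein of plasmodesmata, at -0.61. Loci given by code alone were AT1G68500 (-0.79), AT5G61820 (-0.72), AT2G40205 (-0.70), AT1G15405 (-0.66), AT5G40690 (-0.65), AT3G57540 (-0.63), AT1G73390 (-0.62) and AT4G18280 (-0.59).

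Water channels and sulfate assimilation held lower members too. RD28, the plasma membrane aquaporin PIP2;3, had 0.172 in salt-treated shoots and 0.260 in control shoots (-0.60), and its neighbour and near copy PIP2B, PIP2;2, had 0.215 with salt and 0.292 without (-0.45). The 15 aquaporins measured, of 22 listed, went both ways, with a median of -0.06 and PIP2;8 highest at 0.28. All 3 APS reductases, the enzymes that reduce activated sulfate, were below 0, as were 62.7% of all loci. APR3 stood at -0.47, APR1 at -0.40 and APR2 at -0.32. LSU2, a gene induced by sulfur starvation, was at -0.42, and its Gini index was 0.645 with salt and 0.737 without. The highest base of the vacuolar sulfate transporter SULTR4;1 was 1.59 in salt-treated shoots and 3.19 in control shoots. The nitrate and sulfate list had a median of -0.06 over 19 loci. In it GLN1;1, a cytosolic glutamine synthetase, was highest at 0.21 and SIR, the sulfite reductase, stood at 0.15. Transporters of the salt tolerance pathway differed little, with a median of -0.06 over 15 of 29 listed loci and a range from -0.33 for NHX1, the vacuolar sodium/proton exchanger, to 0.08 for CLC-A. The kinase gene CIPK5 and TDT, the tonoplast malate transporter, were among the 8 most negative differences of the highest base, with 0.892 and 1.34 in salt-treated shoots, against 2.35 and 3.02 in control shoots.

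The 8 higher loci included 2 members of the dark-inducible and starvation list, SEN1 and DIN10. SEN1, induced by darkness and senescence, had 0.549 in salt-treated shoots and 0.260 in control shoots (1.08), the only locus past 2-fold in that direction, and its highest base was 3.48 with salt and 1.54 without. DIN10 had 0.629 in salt-treated shoots and 0.406 in control shoots (0.63). ERD5, the proline dehydrogenase that breaks down proline, had 0.477 with salt and 0.304 without (0.65), while P5CS2, which makes proline, stood at -0.27. The other 2 members of the proline list, P5CR at -0.20 and ALDH12A1 at -0.17, were also below 0. AT1G15125 had 0.605 in salt-treated shoots and 0.330 in control shoots (0.87), and its Gini index was 0.731 with salt and 0.586 without. AT5G62360 and AT1G27020 had 0.480 and 0.497 in salt-treated shoots, against 0.294 and 0.312 in control shoots.

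The list of dark-inducible and starvation genes with the breakdown of branched-chain amino acids had a median log2 ratio of 0.17 over 15 of 25 loci. Of the 15, 10 were above 0, against 37.3% of all loci. The Gini index of this list was higher at 14 of 15 loci, against 73.4% of all loci, and by at least 0.05 at 8. Its median difference was 0.053, against 0.013 over all loci. KINBETA1, a regulatory subunit of the energy-sensing SnRK1 kinase, was at 0.35, MCCA, a carboxylase of leucine breakdown, at 0.30, GDH1, a glutamate dehydrogenase, at 0.28, DIN3 at 0.27 and DRM1, a marker of dormant buds, at 0.26. HPD at -0.23 and EXL4 at -0.28 were the lowest members. The 8 largest positive Gini differences were in AT2G30600, AT2G20670, AT1G15125, DIC2, BT5, UGT73B1, AT3G15450 and AGP16. AT2G20670 had the largest positive difference of the highest base, with 4.26 in salt-treated shoots and 1.33 in control shoots. Its mean was 0.443 with salt and 0.296 without. DIC2, a dicarboxylate carrier of mitochondria, had an index of 0.651 in salt-treated shoots and 0.514 in control shoots. AGP16, an arabinogalactan peptide, had an index of 0.703 with salt and 0.571 without, and a log2 ratio of the mean of 0.12. The ethylene response factor ERF6 (0.55) and BXL1 (0.53), a beta-xylosidase, lay among the 15 highest ratios.

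Photosynthesis transcripts were slightly higher in mean and more uneven in salt-treated shoots. All 9 light-harvesting transcripts measured, of 21 listed, were above 0, against 37.3% of all loci, with a median log2 ratio of 0.22. All 9 also had a Gini index higher by at least 0.05, which 6.31% of all loci had. Their median Gini index was 0.554 in salt-treated shoots and 0.483 in control shoots. LHCB1.5 had the highest mean ratio, with 0.512 in salt-treated shoots and 0.395 in control shoots (0.38), and LHCA1 the largest Gini difference, with 0.558 in salt-treated shoots and 0.475 in control shoots. LHCB4.1 was nearest to 0 at 0.02. The LHCB1 genes are near copies and may share reads. Nuclear-encoded subunits of the photosystems and thylakoid electron transport had a median of 0.12 with 16 of 17 measured members above 0, and all 17 had a higher Gini index, as had 73.4% of all loci. PSAN and PSAD-2 of photosystem I were highest at 0.31, and PDE334 was lowest at -0.04. Calvin cycle enzymes (10 loci, median 0.05) and photorespiration enzymes (11 loci, 0.05) lay close to 0, with RCA, the Rubisco activase, and RPE at 0.12 and the catalase CAT2 at -0.18. The Gini index was higher at all 10 Calvin cycle loci and at 9 of 11 photorespiration loci, the latter near the 73.4% of all loci.

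These transcripts are also among the most reactive. When the loci were put into 5 classes of equal size by their mean over all 4 conditions, all 9 light-harvesting and all 17 photosystem members were in the highest class. The median log2 ratio was 0.04 in the highest class and -0.10 in the lowest. Of the loci past 1.5-fold, 35 of the 39 lower ones were in the lowest class and all 8 higher ones in the highest. Median Gini differences over the 5 classes, from the lowest mean to the highest, were 0.00193, 0.00998, 0.0122, 0.0148 and 0.0270. The mean behind the classes includes both shoot values, so the classes are not independent of the ratios, and the part of the level in the list values was not tested. Chloroplast-encoded transcripts, which as a rule lack the long poly(A) tails that the library preparation selects for, had a median of 0.10 over 14 loci, but only 9 distinct sets of values. Mitochondria-encoded transcripts had a median of -0.11 over 6 loci.

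Lists of auxin response and cell wall genes held members on both sides of 0. Of 13 Aux/IAA genes, repressors of the auxin response, 10 were above 0, against 37.3% of all loci. IAA19 was highest, with 0.313 in salt-treated shoots and 0.233 in control shoots (0.42). Of 9 XTH genes, whose enzymes cut and rejoin xyloglucan in the cell wall, 8 were above 0, against the same 37.3%. They went from XTH9 at 0.48 and XTH24 at 0.31 to XTH7 at -0.14. Both families were picked after their values were seen. Fasciclin-like arabinogalactan genes went from FLA9 at 0.41 to FLA7 at -0.23, and the expansin EXPA1 stood at -0.25. The cell wall list had a median of 0.07 over 22 loci, which was -0.01 with all isoforms counted. Its Gini index was higher at 17 of the 22, near the 73.4% of all loci. In the circadian clock list, with a median of 0.07 over 9 loci, PRR5 stood at 0.25 and ELF4 at -0.32. GRP7, a clock-controlled RNA-binding protein, was below 0 (-0.12), and its Gini index was 0.598 with salt and 0.502 without. Its relative GRP8 was at 0.15.

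Chaperones lay on both sides of 0. Of 8 chloroplast chaperones, a group picked after its values were seen, 7 were above 0, against 37.3% of all loci. CPN60A, a chaperonin subunit, was highest at 0.25, and CLPB3 was below 0 at -0.11. The whole chaperone list, heat shock proteins included, stood at a median of -0.03 over 21 loci. Its lowest members were the cytosolic HSP90.1 at -0.30 and HSC70-3 at -0.25. Of the 21, 17 were in the highest class of mean reactivity, where the median log2 ratio was 0.04. Scavengers of reactive oxygen had a median of 0.02 over 27 loci, -0.002 with all isoforms, from DHAR1 at -0.28 to GPX1 at 0.25. Autophagy genes had a median of -0.05 over 15 loci, with ATG8I at -0.19 and ATG8E at 0.14. Glucosinolate genes had a median of 0.01 over 18 loci, with MAM1, which elongates methionine side chains, at 0.21 and MYB34 at -0.25. The 4 measured phenylpropanoid genes were all below 0, as were 62.7% of all loci, with a median of -0.10. The 6 measured genes of iron handling had a median of -0.004. Of 15 markers of root cells, 5 were measured in shoots, with a median of 0.13. The table gives reactivity and not transcript level, so the tissue label was not checked by markers.

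**Figure D4:**
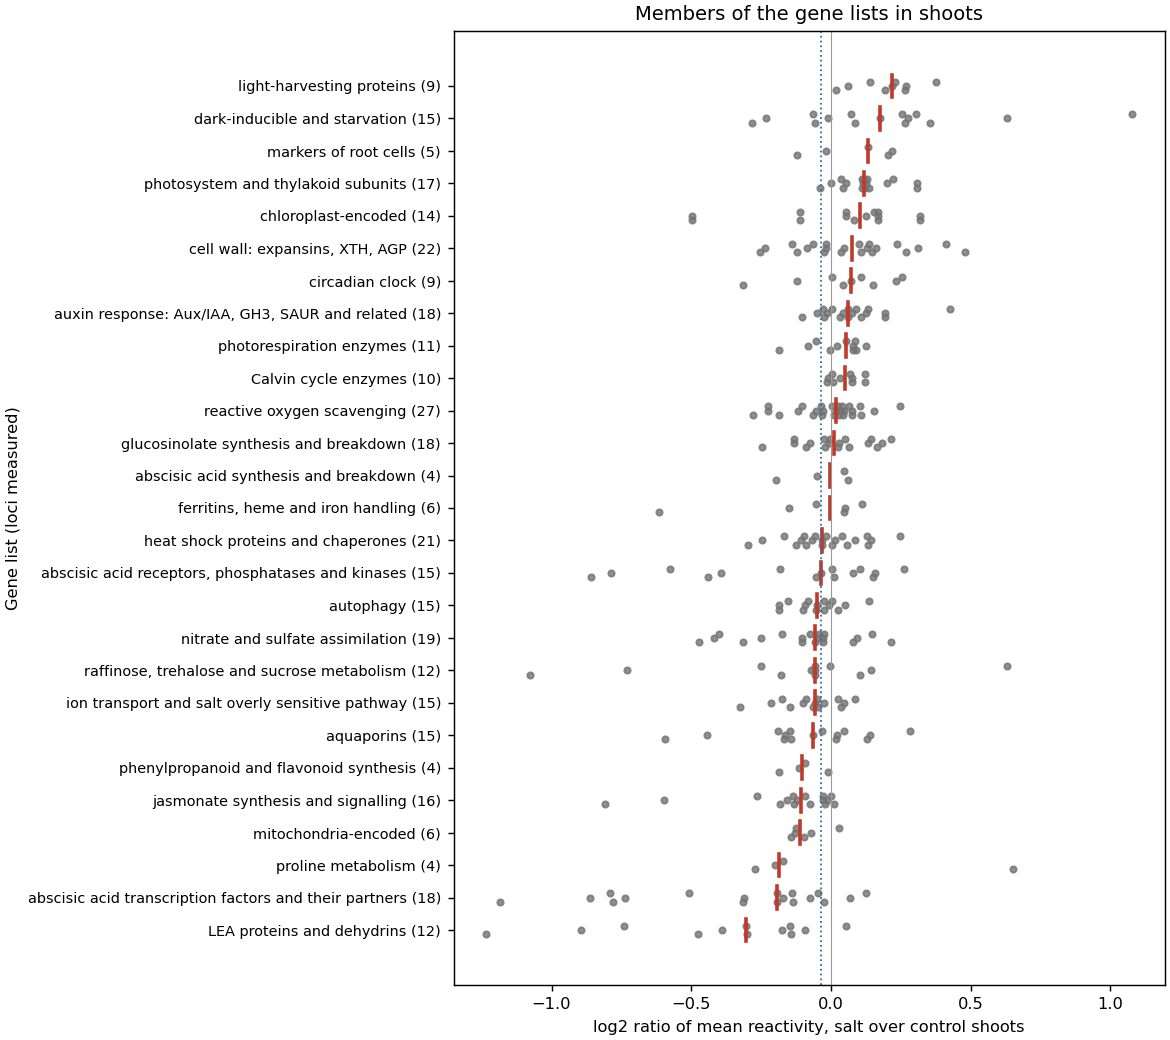
Log2 ratio of mean reactivity, salt over control shoots, for each measured member (grey points) of 27 gene lists, with the list's median (red bar). The dotted blue line is the median of all 8956 loci, -0.035, and the numbers in brackets are loci measured. Light-harvesting proteins lie highest, and LEA proteins and dehydrins and the abscisic acid transcription factors lie lowest.

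Isoforms of the same gene gave similar values. At 2828 loci with several isoforms, the range of log2 ratios between isoforms had a median of 0.015 and a 95th percentile of 0.073. Among the 14 loci past 1.5-fold with several isoforms the widest range was 0.11. Isoforms share reads, so this is no independent repeat. Neighbouring genes at least 0.32 away from 0 formed 4 pairs, each in 1 direction: VSP2 with VSP1, PIP2B with RD28, IGMT2 (0.42) with IGMT4 (0.46), and BAM1 (-0.45) with AT3G23930 (-0.33). The first 3 pairs are near copies.

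Roots had libraries of their own. Of the 36 lower loci also measured in roots, 27 were below 0 with salt there, where 19.9% of 8891 loci were below 0, and their median log2 ratio in roots was -0.15, against 0.09 for all loci in roots. KIN1, at -1.01 in roots, was lower there as in shoots, whereas LTI30 was at 0.12 and AFP1 at -0.18. Of the 8 higher loci, 6 were above 0 and 2 below 0 in roots, near the shares of all root loci, and their median there was 0.39. All 9 light-harvesting transcripts were below 0 in roots, with a median of -0.76.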

How the data were processed

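The deposited table gives, per the file headers, 4 measures per transcript, tissue and treatment. Maximum, average and standard deviation of DMS reactivity are scores on a scale of the authors, and the deposited Gini index is a fraction. The authors combined 3 replicates with and 3 without DMS into each value. The sources used here do not give the aligner, genome build, normalization or coverage filter. Depth per sample is unknown, so counting error and replicate spread have no interval and nothing was tested. No columns of single samples were left out (0).

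From these values the lowest-numbered isoform of each locus was kept where the mean of both shoot averages reached 0.1. The log2 ratio is salt over control without pseudocount, and other differences are salt minus control. Limits of size were 1.5-fold, 0.05 for the Gini index, 0.1 for the standard deviation and 1 for the maximum. Classes of loci by reactivity used the mean over 4 conditions. The interval of a median (95%, order statistics) treats loci as independent.

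Genes named were the 15 highest and 15 lowest ratios, all loci past 1.5-fold, the 8 largest differences each way of the other measures, up to 3 highest and 3 lowest members of each list, and the loci nearest outside the limit. Members of small families are given beyond this rule, chosen after their values were seen. The members and the 27 lists (587 loci by code or prefix, 333 measured) were chosen with earlier results of these data known. Symbols come from the TAIR10.1 RefSeq table, which held 8893 loci (99.3%). No coordinates or sequences are printed. Python 3.11.15, pandas 2.3.3, numpy 2.4.6, scipy 1.17.1 and matplotlib 3.10.9 were used. The ratio and Gini difference formulas were checked by putting known changes into the deposited control-shoot values. That check shows only that the formulas return what was put in.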

Additional observations from a re-analysis of the deposited data

Results flagged for a closer look

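Photosynthesis transcripts lay on opposite sides of 0 in shoots and roots, and this difference was not tested. The median log2 ratio of salt over control for light-harvesting proteins was 0.22 in shoots and -0.76 in roots, with all 9 members above 0 in shoots and all 9 below 0 in roots. For nuclear subunits of photosystems and thylakoid electron transport it was 0.12 in shoots, where 16 of 17 members were above 0, and -0.60 in roots, where all 17 were below 0.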

How the results depend on the processing

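Of 11 alternatives, 9 applied to the list medians, which gave 432 recomputed medians. Of these, 406 lay within the interval of the reported median, 25 lay outside it with the same sign and 1 outside it with the other sign. Part of this agreement was fixed in advance. The setting without a minimum added no locus, and counting identical values once changed only the chloroplast-encoded list. In the smallest lists the interval spanned all members. Most of the 25 had standard deviation over mean in place of the Gini index, set against the interval of the Gini difference. The scales differ, so for that setting these counts show neither agreement nor dependence. The sign differed from the reported one in 22 of the 432, of which 9 came from centring on the median of all loci and 13 from other settings. All but 1 of the 22 lay within the interval. The exception was the Gini difference of aquaporins, which was -0.00047 when centred. Among the others, a minimum mean reactivity of 0.2 gave a log2 median of 0.005 for abscisic acid signalling and a Gini median of 0.0078 for the abscisic acid factors, and centring gave a Gini median of -0.0127 for LEA proteins and dehydrins. Of 72 other results recomputed, 51 stayed within 1.5 times the reported count or within the interval of the reported value. The count of loci at least 1.5-fold higher, 8 as reported, was 13 with all isoforms, 2 with a pseudocount of 0.1, 55 at a limit of 0.32 on the log2 scale and 1 at 2-fold. The count of lower loci, 39 as reported, was 59 with all isoforms, 5 with the pseudocount, 13 at a minimum mean reactivity of 0.2, 187 at 0.32 and 5 at 2-fold. The median log2 ratio was -0.026 with the pseudocount. Centring on the median of all loci set the medians of the log2 ratio and of the Gini, standard deviation and maximum differences to 0 and the share of loci above 0 to 50%. It also gave 228 loci with a higher and 207 with a lower Gini index by at least 0.05, against 565 and 92 as reported. At a minimum of 0.2 the median Gini difference was 0.0135, the median standard deviation difference 0.0029 and the count of lower Gini indices 52. With the Gini index replaced by the ratio of standard deviation to mean, the median difference was 0.0412. That ratio is on another scale than the Gini index, so the 2 medians cannot be compared in size. A higher minimum or limit leaves fewer loci, a pseudocount shrinks ratios of low values, and all isoforms count a locus several times. No paired analysis was possible because the table holds 1 value per condition, with the replicates already combined, and no replicate could be left out.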
